A study of Homo sapiens with 18 samples.

Results

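The genes described here are the 39 protein-coding homeobox genes of the human HOX clusters, taken as every symbol that reads HOXA, HOXB, HOXC or HOXD followed only by digits. They are 39 of the 60603 genes counted in both tables of the series: 11 in HOXA, 10 in HOXB, 9 in HOXC and 9 in HOXD. Their RNA was measured by polyA RNA-seq in MDA-MB-231, an established human breast adenocarcinoma line of the basal, mesenchymal kind, in 18 libraries of 9 conditions with 2 biological replicates each. The series asked how ZMYND8, a chromatin reader protein, alters gene expression in cells given the anthracycline doxorubicin.

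In the inducible system, cells carried a pInducer20 lentiviral construct for either GFP or FLAG-ZMYND8, stably inserted under neomycin/G418 selection. All 6 of its conditions had doxycycline at 250 ng/mL throughout, so the GFP libraries are induced controls and not parental cells. Doxorubicin at 0.6 µM was added 4 h after doxycycline for 6 or 48 h, or was left out. In the transient system, cells were transfected with FLAG ZMYND8 or empty vector and 24 h later received 0.6 µM doxorubicin for 48 h or vehicle. Its conditions were an untreated control, doxorubicin alone, and transient FLAG-ZMYND8 with doxorubicin, and the vector given to each library of the first 2 conditions is not stated in the labels. Each inducible construct is represented by a single line, so construct and line cannot be told apart, and with bulk RNA fewer cells of a type and less RNA per cell cannot be told apart either. Each line also has a single untreated condition, which cannot match both the 6 h and the 48 h libraries in time since doxycycline. Where these times differ, time in culture and length of induction cannot be told apart from doxorubicin, also in the interactions. All p-values rest on the spread between the 2 libraries of a condition, pooled over the conditions fitted together and steadied with information from other genes.

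ZMYND8 itself, the check of the labels, was at 208 and 209 CPM (counts scaled to a common library size, with the trimmed mean of M-values between libraries) in untreated GFP cells and at 921 and 926 CPM in untreated ZMYND8 cells, and it was at 828 CPM or more in all 6 ZMYND8 libraries against at most 209 CPM in the 6 GFP libraries. The transient libraries labelled FLAG-ZMYND8 had 159 and 124 CPM of ZMYND8, below the 218 and 198 CPM of the control, so their overexpression was not seen in these counts and they are called here by their label only. Replicate 2 of the doxorubicin condition and replicate 2 of the condition labelled FLAG-ZMYND8 were also far more alike than any other transient pair, with a chi-square per degree of freedom of 1.39 against 9.71 to 55.6. Library totals ran from 18300628 to 23724398 counts in the inducible system and from 5729294 to 5972396 in the transient system, apart from 24713822 in the second doxorubicin library. The mesenchymal markers VIM, CD44, AXL, CAV1 and MSN were at 299 to 4490 CPM in the inducible libraries, and ESR1, PGR and FOXA1 were at most 1.15 CPM. The epithelial markers EPCAM, CDH1 and ERBB3 were not at 0, reaching 37.3, 21.6 and 13.8 CPM. CDH1 moved with 48 h of doxorubicin, from 0.580 to 0.861 CPM untreated up to 10.4 to 11 CPM in GFP cells and from 3.46 to 4.85 CPM up to 20.1 to 21.6 CPM in ZMYND8 cells, whereas EPCAM went down, from 36.9 to 37.3 CPM to 27.0 to 29.8 CPM and from 10.2 to 11.5 CPM to 6.88 to 8.12 CPM. ERBB3 was at 5.27 to 5.42 CPM untreated and 13.2 to 13.8 CPM at 48 h in GFP cells, and at 4.11 to 5.24 and 6.30 to 6.63 CPM in ZMYND8 cells. VIM also went down, from 4464 to 4490 CPM to 2104 to 2204 CPM in GFP cells and from 3825 to 4171 CPM to 2532 to 2637 CPM in ZMYND8 cells, and CD44, AXL, CAV1 and MSN were also lower at 48 h in both lines. PGR was at 0 CPM in the untreated libraries of both lines and at 0.710 to 0.799 CPM at 48 h in GFP and 0.284 to 0.340 CPM in ZMYND8 cells. FOXA1 was at 0 CPM untreated and 0.546 to 0.710 CPM at 48 h in GFP cells, and at 0 to 0.0874 and 0.284 to 1.15 CPM in ZMYND8 cells. ESR1 was at 0.101 to 0.316 and 0.420 to 0.488 CPM in GFP cells, and at 0.446 to 0.656 and 0.637 to 0.691 CPM in ZMYND8 cells. The part of these shifts in the 48 h values of the HOX genes was not tested.

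HOX proteins are transcription factors that bind DNA through a shared homeodomain, usually together with cofactors of the TALE class such as the MEIS proteins, and give cells along the body axis their positional identity. Within each cluster the genes are ordered so that low-numbered (anterior) and high-numbered (posterior) members are used at different times and levels of the axis, and Polycomb and Trithorax proteins hold them silent or active. In breast tissue and breast tumours, single members such as HOXB7, HOXB9 and HOXA13 have been studied for growth, migration and invasion.

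The clusters lie at chr7:27093313-27200091 (HOXA, minus strand), chr17:48528526-48729178 (HOXB, minus strand), chr12:53938831-54056030 (HOXC, plus strand) and chr2:176092721-176190907 (HOXD, plus strand) of hg38. RefSeq promoters were matched for 19 of the 39 members and for 4 of the members that passed a test in the inducible system. HOXA13 was called lower in most inducible comparisons that are not interactions, and the calls of HOXD1 and HOXD3 were all higher. The 250 bases before the RefSeq start (GRCh38.p14) are shown for these genes. They read 5′ to 3′ on the gene's strand, with capitals wherever a promoter motif was found on either strand. The first motif searched was the pentamer CCAAT, which recruits the NF-Y factor. The second was the hexamer GGGCGG, known as the GC box and bound by Sp1. The third was the TATA box, written as TATAAA, which positions the start of transcription. The last was TGATNNAT, a HOX-cofactor type element.
HOXA13: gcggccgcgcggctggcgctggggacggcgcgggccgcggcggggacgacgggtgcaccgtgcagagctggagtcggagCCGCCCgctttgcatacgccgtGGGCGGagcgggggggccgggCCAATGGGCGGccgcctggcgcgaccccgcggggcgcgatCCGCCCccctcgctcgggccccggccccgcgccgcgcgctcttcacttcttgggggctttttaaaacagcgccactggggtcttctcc
HOXD1: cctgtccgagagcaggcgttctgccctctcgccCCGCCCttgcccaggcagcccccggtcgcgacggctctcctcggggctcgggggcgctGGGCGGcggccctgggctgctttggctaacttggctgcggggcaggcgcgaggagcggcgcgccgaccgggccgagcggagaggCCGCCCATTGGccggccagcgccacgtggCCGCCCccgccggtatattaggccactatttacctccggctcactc
HOXD3: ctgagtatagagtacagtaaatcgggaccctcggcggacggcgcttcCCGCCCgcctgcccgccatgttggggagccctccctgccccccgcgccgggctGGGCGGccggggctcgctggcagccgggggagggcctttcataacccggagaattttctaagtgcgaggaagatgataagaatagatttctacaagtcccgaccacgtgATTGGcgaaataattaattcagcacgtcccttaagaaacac
The HOXA13 window, chr7:27200092-27200341 on the minus strand, held 40 CpG dinucleotides, at or above the number in 98.3% of 34943 RefSeq promoters, whose median was 11. The HOXD1 window, chr2:176188418-176188667 on the plus strand, held 31 CpG (at or above 90.5% of promoters) and lies over an exon of HAGLR on the opposite strand. The HOXD3 window, chr2:176157057-176157306 on the plus strand, held 21 CpG (72.0%) and lies inside the gene's span in the counting annotation, which starts upstream at 176136612. GGGCGG was found at 4 places in HOXA13, 4 in HOXD1 and 2 in HOXD3, and CCAAT at 1 place in each, against 42.5% and 32.0% of all promoters with at least 1. Neither TATAAA, present in 10.8% of promoters, nor TGATNNAT, present in 6.49%, occurred in these windows. The fourth matched called member, HOXC4, is not printed because its window lies over an exon of HOXC6, and it differed from the others, with 14 CpG (at or above 57.2% of promoters), 2 CCAAT and 0 GGGCGG. These matches describe the letters only.

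HOX RNA was scarce and came mostly from HOXB and HOXD. In the inducible libraries the 39 genes together took 871 to 2110 counts, or 47.6 to 95.3 CPM before scaling. HOXB held 60.4 to 73.8% of these counts, HOXD 18.4 to 31.6%, HOXC 2.68 to 7.22% and HOXA 0.605 to 6.06%. The order HOXB, then HOXD, then HOXC and HOXA was thus clear for the first 2 clusters, whereas the ranges of HOXC and HOXA overlapped. HOXA4 was the only member without a single count in all 12 inducible libraries, and between 15 and 31 members had a count in any 1 library.

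Per kilobase of exon, HOXB9 (chr17:48621156-48626358, minus strand), a posterior member, was the most abundant HOX RNA, with a mean over the 12 inducible libraries of 13.4 CPM per kb and a range of 8.26 to 16.9. The anterior HOXD4 followed at 4.82 (4.41 to 5.55) and HOXD1 at 3.21 (2.19 to 4.63), and the ranges of these 2 neighbours overlapped, while HOXB9 lay above both in every library. HOXB3 at 0.975, HOXD3 at 0.960, HOXB7 at 0.611, HOXC6 at 0.522 and HOXB4 at 0.485 CPM per kb came next. HOXC9 had 0.374 and HOXC8 0.191 CPM per kb. In HOXA, HOXA13 stood at 0.292 CPM per kb, and the next members, HOXA11 and HOXA2, at 0.0249 and 0.0133, came from at most 7 and 5 counts in any library. HOXB9 alone supplied 44 to 63.0% of all HOX counts.

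**Figure D1:**
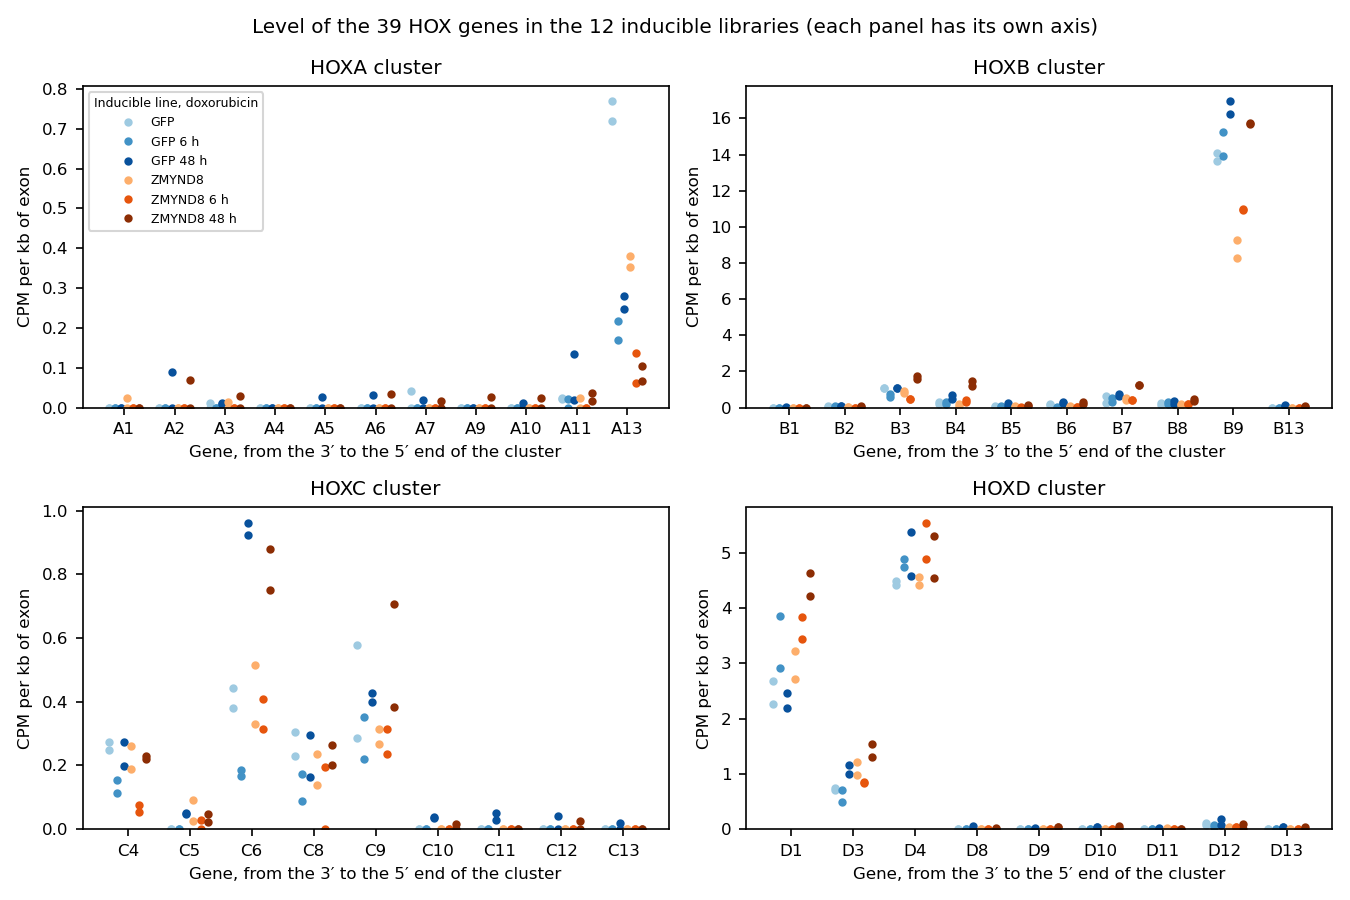
Levels of the HOX genes in the inducible libraries, by cluster and position (CPM per kb of exon, each panel with its own axis from 0; points are libraries, coloured by condition). HOXB9, HOXD4 and HOXD1 stand highest, and HOXA13 is the only HOXA member well above 0.

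Of the 39 members, 14 had enough counts to be tested in the inducible system: HOXA13, 6 of HOXB (HOXB3, HOXB4, HOXB6, HOXB7, HOXB8, HOXB9), 4 of HOXC (HOXC4, HOXC6, HOXC8, HOXC9) and 3 of HOXD (HOXD1, HOXD3, HOXD4). The other 25 had at most 12 counts in any library. A gene was called at a Benjamini-Hochberg adjusted p of at most 0.05 over all 18801 genes tested with edgeR's quasi-likelihood test. HOXC8, HOXC9 and HOXD4 were called in no comparison.

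HOXB9, a posterior gene linked to epithelial-mesenchymal transition in breast tumour cells, was lower in ZMYND8 than in GFP cells without doxorubicin and after 6 h, and the difference did not pass the test at 48 h. The GFP line held 35.2 and 36.4 CPM untreated, 39.4 and 36.0 CPM at 6 h and 43.8 and 41.9 CPM at 48 h. ZMYND8 cells held 21.4 and 23.9, then 28.2 and 28.4, then 40.7 and 40.6 CPM. All 4 ZMYND8 libraries of the untreated and 6 h conditions lay below every GFP library. The log2 difference of ZMYND8 against GFP was −0.65 (SE 0.07, edgeR adjusted p = 1.94e-08) without doxorubicin and −0.41 (SE 0.07, edgeR adjusted p = 1.98e-05) after 6 h, and −0.08 (SE 0.07, edgeR adjusted p = 0.328) after 48 h. After 48 h of doxorubicin HOXB9 was higher than untreated in ZMYND8 cells by 0.84 log2 units (SE 0.07, edgeR adjusted p = 8.67e-11) and in GFP cells by 0.26 (SE 0.07, edgeR adjusted p = 0.00161). The rise was larger in the ZMYND8 line by 0.58 log2 units (SE 0.10, edgeR interaction term, adjusted p = 5.29e-05).

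The anterior HOXB genes HOXB3 (chr17:48548870-48604912) and HOXB4 (chr17:48575507-48578350, a gene known for expanding blood stem cells) also rose at 48 h of doxorubicin in the ZMYND8 line. In the GFP line HOXB4 rose less, and HOXB3 was near its untreated level at 48 h. HOXB3 was at 7.90 and 8.22 CPM untreated, 4.35 and 5.51 at 6 h and 7.89 and 8.24 at 48 h in the GFP line. In ZMYND8 cells it was at 5.97 and 7.00 CPM, then 3.69 and 3.62, then 12.8 and 12.0. It thus dipped at 6 h in both lines, without overlap with the untreated libraries, and ended above them in the ZMYND8 line. The 6 h fall was −0.71 (SE 0.15, edgeR adjusted p = 0.000267) in GFP and −0.83 (SE 0.16, edgeR adjusted p = 0.000112) in ZMYND8 cells on the log2 scale. At 48 h HOXB3 was higher than untreated by 0.93 (SE 0.13, edgeR adjusted p = 9.04e-07) in ZMYND8 cells, and the 2 lines' 48 h changes differed by 0.93 (SE 0.19, edgeR interaction term, adjusted p = 0.000451). At 48 h the ZMYND8 line exceeded the GFP line by 0.62 log2 units (SE 0.13, edgeR adjusted p = 0.000131). At 6 h HOXB3 was lower in the ZMYND8 line by −0.43 (SE 0.17, edgeR adjusted p = 0.0330), a call lost without the second GFP 6 h library (−0.25) or without either ZMYND8 6 h library (−0.44 and −0.42), and with DESeq2 (adjusted p = 0.0875).

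HOXB4 stood at 0.608 and 0.369 CPM in GFP cells and at 0.446 and 0.219 CPM in ZMYND8 cells. After 48 h of doxorubicin it reached 0.931 and 1.39 CPM in GFP and 2.92 and 2.34 CPM in ZMYND8 cells, and all 4 of these libraries lay above all 4 untreated ones. The log2 rise was 3.01 (SE 0.42, 8.07-fold, edgeR adjusted p = 5.76e-07) in the ZMYND8 line and 1.24 (SE 0.43, 2.36-fold, edgeR adjusted p = 0.0142) in the GFP line. The GFP call was lost without the second untreated GFP library (0.93) or the second GFP 48 h library (0.92). The difference between these rises was 1.78 (SE 0.64, edgeR interaction term, adjusted p = 0.0385), and leaving out the first GFP library (1.37), the first GFP 48 h library (1.52), the second ZMYND8 library (1.31) or the first ZMYND8 48 h library (1.6) ended that call, and DESeq2 gave it no adjusted p (1.76). At 48 h HOXB4 was higher in ZMYND8 than in GFP cells by 1.18 (SE 0.33, edgeR adjusted p = 0.00326), or by 0.92 without the first GFP 48 h library, where the call was lost.

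The middle HOXB genes HOXB6, HOXB7 and HOXB8 stood higher after 48 h of doxorubicin than untreated in the ZMYND8 line, and their means were also higher in the GFP line. HOXB6 and HOXB8 passed the filter on low counts only through 48 h libraries, so their 48 h differences are given without a test. HOXB7, known for activating growth factor genes in breast tumour cells, went from 0.781 and 0.612 CPM to 1.91 and 1.91 (log2 rise 1.46, SE 0.39, edgeR adjusted p = 0.00182). HOXB6 went from 0.223 and 0.0874 to 0.569 and 0.765 CPM (fitted log2 difference 2.12, SE 0.65). HOXB8, a gene of myeloid progenitors, went from 0.279 and 0.437 to 1.02 and 0.765 CPM (1.27, SE 0.50). For HOXB7 the 48 h libraries lay above both untreated ones. The HOXB6 difference was 1.55 without the second untreated ZMYND8 library and 2.84 without the first, and the HOXB8 difference 1.01 without the first untreated and 1.05 without the first 48 h library. Means in the GFP line, untreated and at 48 h, were 0.412 and 0.671 CPM for HOXB6, 0.666 and 1.04 for HOXB7, and 0.389 and 0.566 for HOXB8. The HOXB7 change there was not called (log2 0.63, SE 0.42, edgeR adjusted p = 0.200). Nor were the 48 h changes of HOXB7 called different between the lines (0.84, SE 0.58, edgeR interaction term, adjusted p = 0.317).

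In GFP cells HOXB6 fell at 6 h, from 9 and 7 counts to 1 and 0, a ratio of 15.6 with a counting interval of 2.42 to 654 (edgeR adjusted p = 0.00401). The fitted log2 value of −3.69 became −6.14 without the first GFP 6 h library, which held the only count, and −2.84 without the second. Of the exon bases of HOXB6, 16.6% are shared with HOXB3 on the same strand and 16.3% lie opposite HOXB-AS3. HOXB7 was higher in ZMYND8 than in GFP cells at 48 h (1.91 and 1.91 against 1.11 and 0.967 CPM, log2 difference 0.88, SE 0.35, edgeR adjusted p = 0.0346). That call was lost without any 1 of the 4 libraries (0.78 to 0.98) and with DESeq2 (adjusted p = 0.146).

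**Figure D2:**
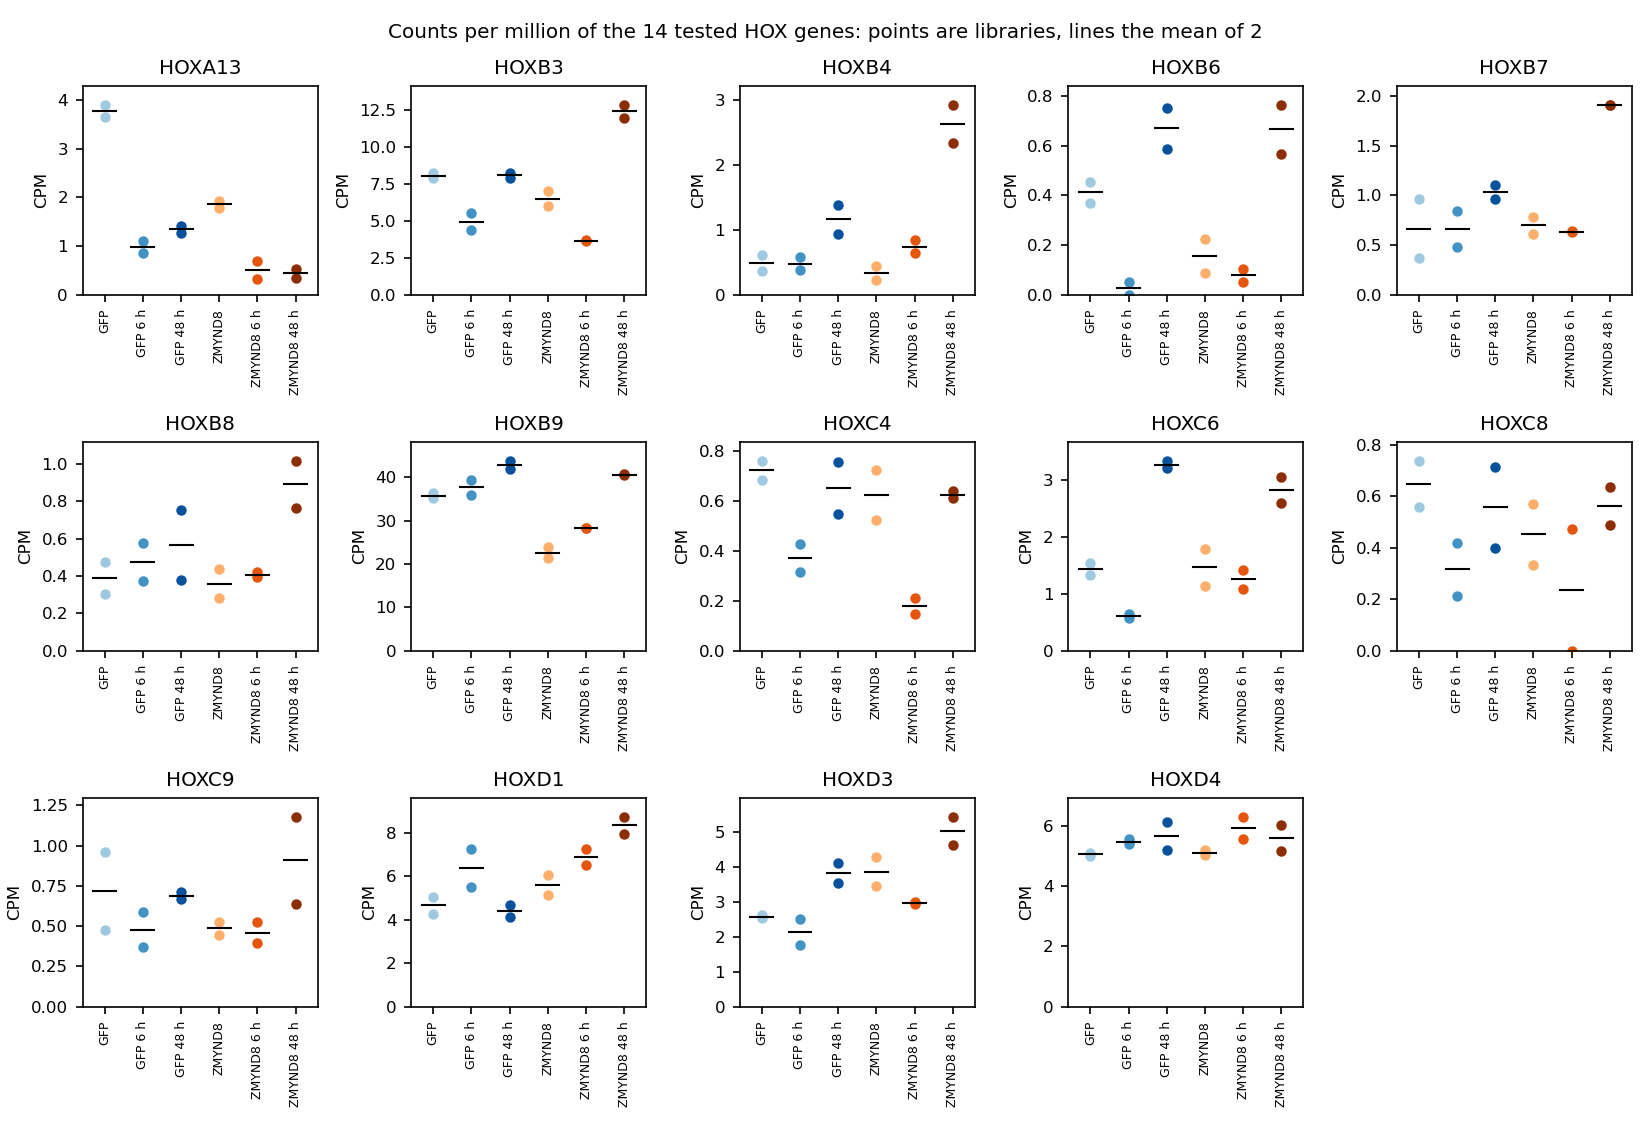
Level of each of the 14 tested HOX genes in the 12 inducible libraries (CPM, 1 panel per gene; points are libraries, lines the mean of the 2, grouped by line and hours of doxorubicin). HOXB3, HOXB4 and HOXB9 end higher at 48 h than untreated in the ZMYND8 line, and HOXA13 is lower after doxorubicin in both lines.

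HOXA13, the most posterior HOXA gene, which patterns the hands, feet and genital tract, was the only HOXA member tested. It was called lower in 6 of the 7 inducible comparisons that are not interactions. GFP cells held 3.65 and 3.90 CPM untreated, 1.1 and 0.856 at 6 h and 1.42 and 1.26 at 48 h. ZMYND8 cells held 1.79 and 1.92 CPM, then 0.689 and 0.315, then 0.528 and 0.340. In each line all 4 doxorubicin libraries lay below both untreated ones, and at every time both ZMYND8 libraries lay below both GFP libraries. The log2 change of HOXA13 from untreated at 6 h was −1.94 (SE 0.32, edgeR adjusted p = 9.08e-06) in GFP and −1.86 (SE 0.38, edgeR adjusted p = 0.0002) in ZMYND8 cells, the latter becoming −2.54 without the first ZMYND8 6 h library. At 48 h the falls were −1.49 (SE 0.29, edgeR adjusted p = 7.31e-05) and −2.08 (SE 0.37, edgeR adjusted p = 2.32e-05).

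Between the lines, HOXA13 was lower with ZMYND8 by −1.02 log2 units (SE 0.29, 2.03-fold, edgeR adjusted p = 0.00317) without doxorubicin and by −1.61 (SE 0.38, 3.04-fold, edgeR adjusted p = 0.000689) after 48 h. After 6 h the log2 difference was −0.94 (SE 0.42, edgeR adjusted p = 0.0582). The 2 lines' responses to doxorubicin were not called different for HOXA13 at either time. HOXA13 was the only member called lower after 48 h of doxorubicin, in both lines.

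HOXC6, a gene active in the developing chest wall and mammary gland, rose at 48 h in both lines and fell at 6 h in GFP cells. In the GFP line it went from 1.32 and 1.53 CPM to 0.577 and 0.642 at 6 h and 3.33 and 3.19 at 48 h, with no overlap between any of the 3 conditions. In ZMYND8 cells it went from 1.79 and 1.14 CPM to 1.08 and 1.42 and then to 3.05 and 2.59. The GFP changes were −1.21 (SE 0.36, edgeR adjusted p = 0.00651) at 6 h and 1.19 (SE 0.27, edgeR adjusted p = 0.000444) at 48 h on the log2 scale, and the 48 h rise in ZMYND8 cells was 0.97 (SE 0.27, edgeR adjusted p = 0.00334), or 0.66 and not called without the second untreated ZMYND8 library. At 6 h HOXC6 was higher in ZMYND8 than in GFP cells by 1.03 (SE 0.37, edgeR adjusted p = 0.0196). That call was lost without either GFP 6 h library (0.95 and 1.1) or the second ZMYND8 6 h library (0.82), and with DESeq2 (adjusted p = 0.0628). The 6 h changes of HOXC6 were not called different between the lines (1.01, SE 0.48, edgeR interaction term, adjusted p = 0.185).

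HOXC4, the most anterior HOXC gene, was called once, falling at 6 h in ZMYND8 cells from 0.725 and 0.525 CPM to 0.148 and 0.210 (log2 −1.76, SE 0.60, edgeR adjusted p = 0.0191). It was not called without the first untreated or the first 6 h library (−1.53 in each), and DESeq2 gave it no adjusted p (log2 −1.81). HOXC4 was also lower at 6 h in GFP cells, with means of 0.722 CPM untreated and 0.371 CPM at 6 h (log2 −0.95, SE 0.51, edgeR adjusted p = 0.132). Its 6 h changes were not called different between the lines (−0.81, SE 0.80, edgeR interaction term, adjusted p = 0.588). Of its exon bases 17.5% are shared with HOXC6 and an unnamed gene on the same strand, and 16.1% of those of HOXC6 with HOXC4, HOXC9 and that gene. HOXC8 ran from 0 to 0.738 CPM and HOXC9 from 0.367 to 1.18 CPM over the 12 libraries, and neither was called in any comparison.

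In HOXD the anterior HOXD1 (chr2:176188668-176190907), a gene of pain-sensing neurons, was highest in ZMYND8 cells after 48 h. It held 5.06 and 4.27 CPM untreated, 5.51 and 7.27 at 6 h and 4.12 and 4.66 at 48 h in the GFP line. In ZMYND8 cells it held 5.13 and 6.08 CPM, then 7.24 and 6.51, then 8.73 and 7.95. Both ZMYND8 48 h libraries thus exceeded every other library. At 48 h the lines differed by 0.92 log2 units (SE 0.16, edgeR adjusted p = 1.82e-05), and HOXD1 was higher after 48 h of doxorubicin than untreated in the ZMYND8 line by 0.57 (SE 0.16, edgeR adjusted p = 0.00319). The difference between the 48 h responses was 0.65 (SE 0.24, edgeR interaction term, adjusted p = 0.0417), a call that was lost without the first GFP (0.52), first GFP 48 h (0.57), first ZMYND8 (0.53), first ZMYND8 48 h (0.58) or second ZMYND8 48 h library (0.72), and with DESeq2 (adjusted p = 0.121). The 6 h rise in GFP cells, 0.45 (SE 0.17, edgeR adjusted p = 0.0345), was lost without the second untreated GFP (0.33) or the second GFP 6 h library (0.24), and with DESeq2 (adjusted p = 0.0890).

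Of the exon bases of HOXD1, 60.1% lie over opposite-strand exons of the noncoding gene HAGLR or of an unnamed gene. HAGLR had 724 and 730 counts in GFP cells and 567 and 522 in ZMYND8 cells at 48 h, a log2 difference of −0.47 (edgeR adjusted p = 3e-06), so the overlapping genes differed in opposite directions at that time. The inducible table was counted by strand, and antisense genes lying within exons of abundant genes had 0.0639 to 0.0933 of the sense density there.

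HOXD3 (chr2:176136612-176173102), known for inducing integrins in endothelium, was at 2.53 and 2.63 CPM untreated, 2.52 and 1.76 at 6 h and 3.55 and 4.12 at 48 h in the GFP line. In ZMYND8 cells it was at 3.46 and 4.28, then 3.0 and 2.94, then 4.63 and 5.44 CPM. Without doxorubicin it was higher with ZMYND8 by 0.59 log2 units (SE 0.22, edgeR adjusted p = 0.0228), and after 48 h of doxorubicin it was higher than untreated in GFP cells by 0.57 (SE 0.22, edgeR adjusted p = 0.0241), both without overlap between libraries. The first call was lost without either GFP library (0.56 and 0.62) or the second ZMYND8 library (0.42) and with DESeq2 (adjusted p = 0.0736). The second was lost without either untreated GFP library (0.54 and 0.60) or the second GFP 48 h library (0.46) and with DESeq2 (adjusted p = 0.0619). HOXD4, a hindbrain and neck vertebra gene, stayed between 5.01 and 6.30 CPM in all 12 libraries, and its edgeR adjusted p-values ran from 0.316 to 0.972.

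Counted over comparisons, called HOX genes were a smaller share of the tested members than called genes were of all genes, apart from 48 h of doxorubicin in ZMYND8 cells and the 48 h interaction, where the shares were close. Median counts per library of the tested members ran from 5.5 (HOXB6) to 693 (HOXB9), with HOXC8 at 10 and HOXB4 at 12.5. All genes were not matched to them in level, so a smaller share is not read as a weaker response. Of the 14 tested members, ZMYND8 against GFP called 3 without doxorubicin (1 higher, 2 lower), which is 21.4% against 58.3% of all genes, 3 after 6 h (1 higher, 2 lower), 21.4% against 55.5%, and 5 after 48 h (4 higher, 1 lower), 35.7% against 60%. Doxorubicin called 5 at 6 h in GFP cells (1 higher, 4 lower), 35.7% against 47.9%, and 4 at 6 h in ZMYND8 cells (1 higher, 3 lower), 28.6% against 40.8%. At 48 h it called 5 in GFP cells (4 higher, 1 lower), 35.7% against 64.2%, and 9 in ZMYND8 cells (8 higher, 1 lower), 64.3% against 62.3%. HOXB6 and HOXB8, which passed the filter only through 48 h libraries, are 2 of these 9. The 48 h interaction called 4, all higher in the ZMYND8 line, 28.6% against 28.6%. Without HOXB6 and HOXB8 the 48 h shares of members called were 41.7% (5 of 12) for ZMYND8 against GFP, 41.7% (5 of 12) for doxorubicin in GFP cells, 58.3% (7 of 12) for doxorubicin in ZMYND8 cells and 33.3% (4 of 12) in the interaction. The 6 h interaction called 0 of 14 with edgeR (background 13.4%), with 2 at an unadjusted p of at most 0.05 and 0 with DESeq2.

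At 48 h in the ZMYND8 line 8 of 14 were called higher, or 6 of 12 without HOXB6 and HOXB8, against 31.6% of all genes. Without these 2 genes, the median log2 change was 0.70 for the 12 members and 0.05 for all genes tested (0.86 with them). In GFP cells the medians at 48 h were 0.08 for the 12 members (0.21 with both genes) and 0.03 for all genes, and in the 48 h interaction 0.53 (0.62 with both genes) and −0.01. At 6 h the members' medians were −0.43 in GFP and −0.16 in ZMYND8 cells, against −0.05 and −0.01 for all genes. ZMYND8 against GFP gave medians of −0.27, −0.06 and 0.20 at 0, 6 and 48 h, against 0.00, 0.00 and −0.04 for all genes. These comparisons share libraries, so their values are not independent of each other. The values for all genes still include genes that passed the filter only through 48 h libraries, unlike those for the 12 members.

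**Figure D3:**
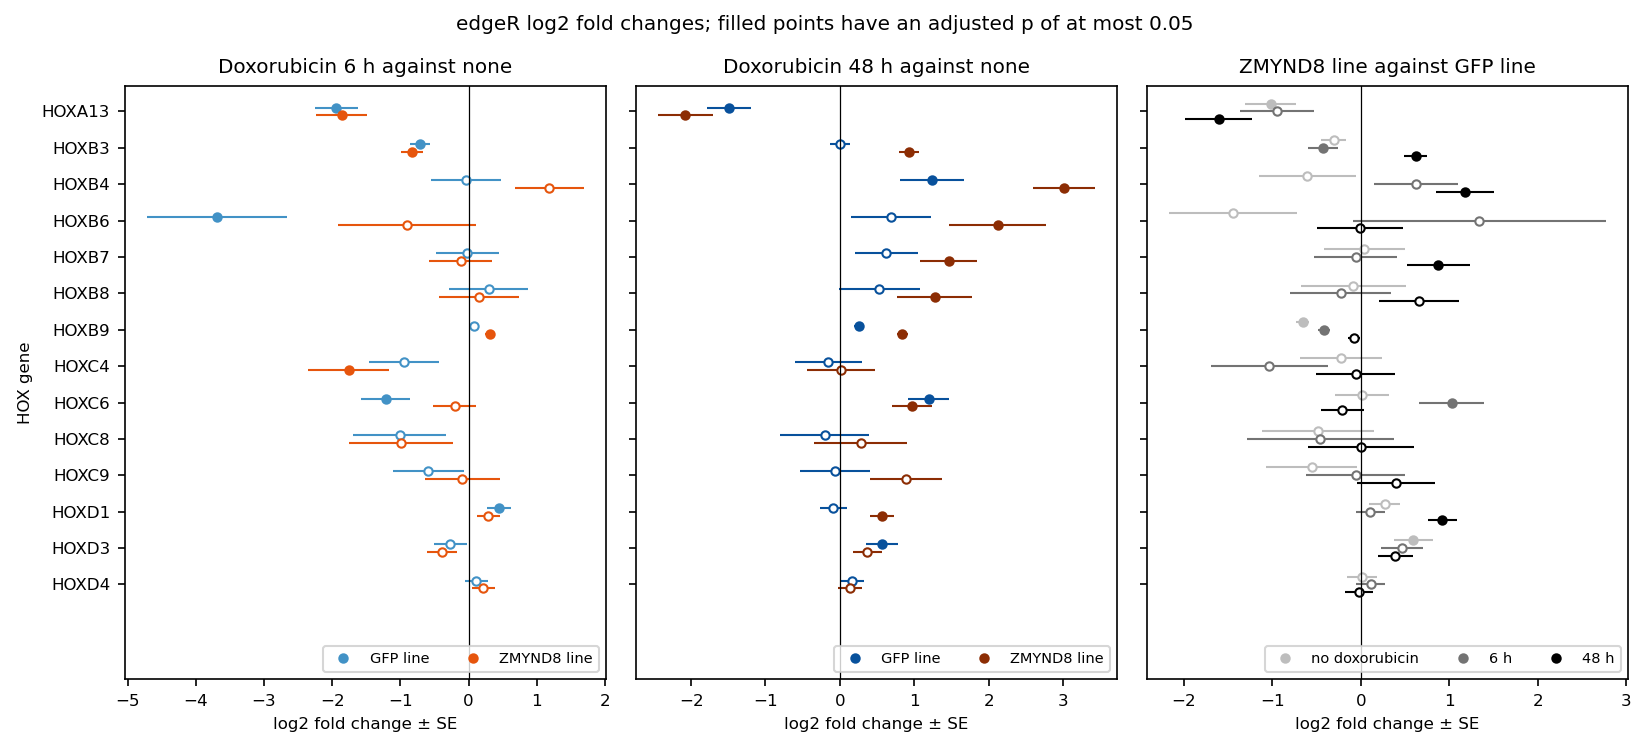
Log2 fold changes of the 14 tested HOX genes in the inducible comparisons (points with bars of 1 SE, 1 panel each for 6 h of doxorubicin, 48 h of doxorubicin and ZMYND8 against GFP; filled points have an adjusted p of at most 0.05). At 48 h in the ZMYND8 line 8 genes have filled points to the right of 0 and 1, HOXA13, to the left. HOXB6 and HOXB8, 2 of the 8, passed the filter only through 48 h libraries, so their filled points there do not count as tests.

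Members near 0 in untreated cells gained a few counts at 48 h. Counting members with at most 3 counts pooled over both untreated libraries, 22 in the GFP line had 3 and 2 counts in all untreated, 1 and 0 at 6 h and 34 and 35 at 48 h (95% exact Poisson intervals 23.5 to 47.5 and 24.4 to 48.7, counting error only). The 23 such members of the ZMYND8 line summed to 5 and 3, then 1 and 1, then 25 and 24 counts. Of these, 8 of 22 (36.4%) in the GFP line passed 3 pooled counts at 48 h, against 43.4% of all protein-coding genes with equally few untreated counts, and 5 of 23 (21.7%) in the ZMYND8 line against 37.6%. At 6 h 0 of 22 and 0 of 23 did, against 4.03% and 3.65%; this count comes from no test. HOXB13, a prostate and hindgut gene at the end of its cluster, reached 6 and 12 counts in GFP cells at 48 h, at least 5.01-fold higher against a floor of 3 counts over the untreated group, and 3 and 6 counts in ZMYND8 cells, at least 2.54-fold higher. HOXA11, a limb and uterus gene, had 7 and 1 counts in GFP cells at 48 h, and HOXA2, a hindbrain gene, had 0 and 5 in GFP and 4 and 0 in ZMYND8 cells. The leukocyte gene PTPRC moved with these counts, from 0.253 to 0.738 CPM untreated to 3.37 to 3.95 CPM at 48 h in GFP cells and from 0.0558 to 0.131 CPM to 2.03 to 2.04 CPM in ZMYND8 cells, and its part in the result was not tested. The endothelial gene PECAM1 went from 5.27 to 5.58 CPM down to 3.57 to 4.17 in GFP cells and from 1.06 to 1.49 CPM up to 1.71 to 1.87 in ZMYND8 cells.

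**Figure D4:**
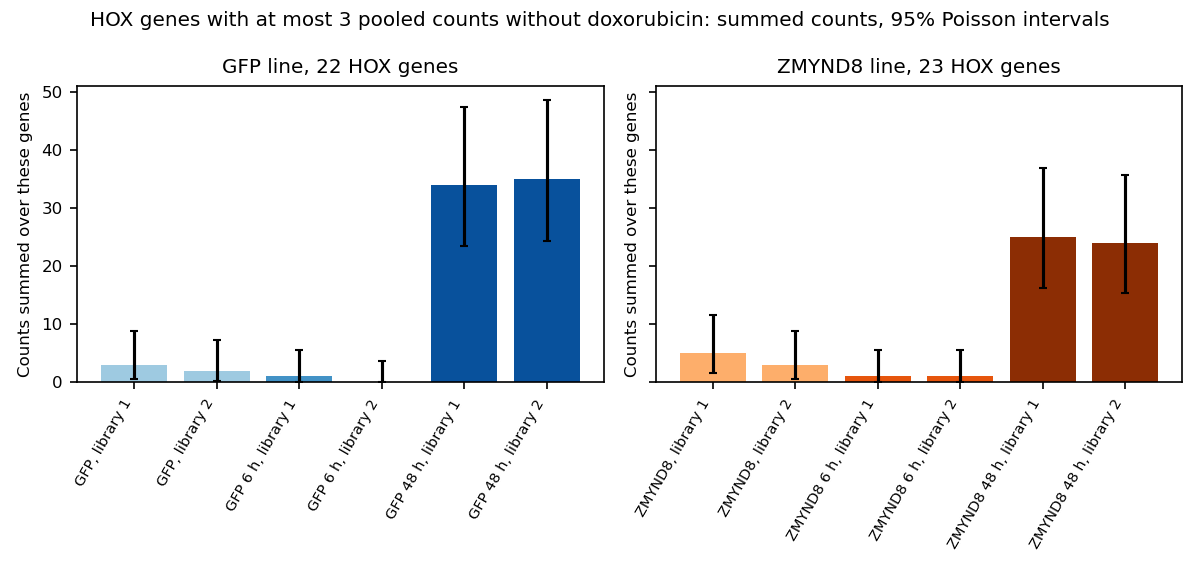
Summed counts of the HOX genes with at most 3 pooled untreated counts, by library (bars from 0; whiskers are 95% Poisson intervals). Both 48 h libraries of each line stand at 24 counts or more and all others at 5 or fewer.

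In the transient system the same genes led, with fewer counts behind them. HOXB9 had a mean of 5.85 CPM per kb, HOXD4 2.26, HOXB3 1.99, HOXD1 1.81 and HOXD3 1.39. HOXB held 54.0 to 72.1% of the HOX counts, HOXD 19.8 to 29.9%, HOXC 5.53 to 8.97% and HOXA 1.34 to 9.20%. HOX genes had 174 to 1171 counts per library, and 10 members had none in any. HOXB9 was 2.94 times as abundant as HOXB3 per kb in this table and 13.8 times in the inducible one, but the tables were made separately. In the transient table antisense genes had 1.49 to 1.62 times the density of the sense gene, so overlapping genes on opposite strands cannot be told apart there.

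Of the 8 members tested in the transient system, edgeR called 0 in each of the 3 comparisons, with 0 at an unadjusted p of at most 0.05 and 0 with DESeq2. All genes were called at 5.12% for doxorubicin against control, 6.82% for the libraries labelled FLAG-ZMYND8 against control and 0% for these against doxorubicin alone. HOXB9 was at 17.9 and 5.20 CPM in the control, at 25.6 and 10.2 CPM under doxorubicin and at 18.9 and 13.1 CPM where FLAG-ZMYND8 is the label, so all 3 conditions overlapped. Replicate 1 was above replicate 2 in each condition, and within each replicate number doxorubicin was above the control. HOXB3 was at 15.4 and 8.32, then 15.2 and 14.1, then 19.5 and 16.5 CPM, and its log2 difference from control in the libraries labelled FLAG-ZMYND8 had an edgeR adjusted p of 0.262. HOXA13, with 4 to 29 counts per library, was at 1.33 and 2.77, then 2.42 and 1.1, then 1.18 and 0.654 CPM.

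Log2 differences of the 8 members ranged from −0.39 to 0.78 for doxorubicin against control, from −1.17 to 0.76 for the libraries labelled FLAG-ZMYND8 against control and from −0.77 to 0.30 against doxorubicin alone. Thinning the deep doxorubicin library also gave 0 calls. Leaving out both of the alike second libraries gave 0 calls too, but there the spread came from the 2 control libraries alone, so this says nothing about stability.

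**Figure D5:**
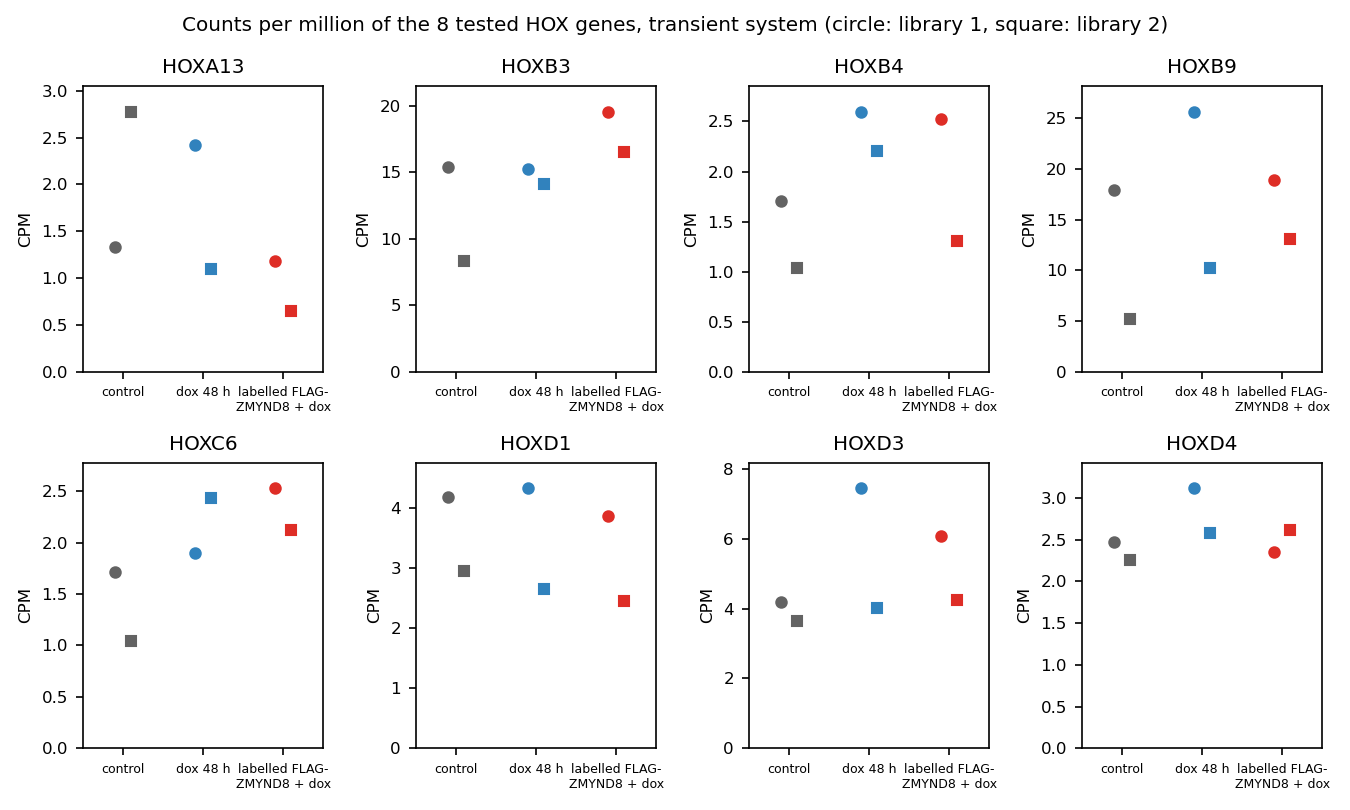
Level of the 8 HOX genes tested in the transient libraries (CPM; points are the 2 libraries of each condition). The 3 conditions overlap for HOXB9 and for HOXD1.

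Among 24 noncoding genes of the HOX clusters, 3 were tested in the inducible system. HOXB-AS1, antisense in the HOXB cluster, had 18 and 15 counts in GFP and 4 and 4 in ZMYND8 cells without doxorubicin, a log2 difference of −2.08 (SE 0.61, edgeR adjusted p = 0.00478). HOXC-AS2 had 2 and 1 counts untreated and 17 and 9 at 48 h in GFP cells, and 2 and 1 untreated and 12 and 8 at 48 h in ZMYND8 cells. It passed the filter on low counts only through 48 h libraries, so no test of this difference is given.

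Of the HOX cofactor genes, 7 of 9 were tested. ZMYND8 against GFP without doxorubicin called 3 higher and 2 lower, read against 58.3% of all genes called there, among the latter MEIS1 at −3.72 and MEIS3 at −1.89 on the log2 scale. Doxorubicin for 48 h called 2 higher and 2 lower in each line. Of 26 tested Polycomb genes 9 rose and 8 fell at 48 h in GFP cells, and 11 rose and 12 fell in ZMYND8 cells. Of 20 Trithorax and histone demethylase genes, 8 rose and 9 fell in GFP and 6 rose and 9 fell in ZMYND8 cells. Of 6 tested neighbours flanking the clusters, 1 rose and 1 fell in GFP and 2 rose and 2 fell in ZMYND8 cells. These lists moved in both directions, read against a background of 64.2% and 62.3% of all genes called.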

How the data were processed

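The authors deposited raw counts per gene for polyA RNA-seq libraries: 6 transient and 12 inducible, with totals as given in the report. The submitters' processing notes name Trim Galore, HISAT2, featureCounts, DESeq2 and hg38, whereas the study's methods name TopHat and cuffdiff. Per the file headers, the inducible table was counted by featureCounts 1.6.4 over GENCODE 31 exons with strand setting 2. Members and lists were chosen with earlier results of these data known.

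Each table was fitted separately on the deposited counts with edgeR 4.0.16 (R 4.3.3): TMM scaling, filterByExpr, 1 mean per condition and the quasi-likelihood test. A gene was called at a Benjamini-Hochberg adjusted p of at most 0.05 over 15697 (transient) or 18801 (inducible) genes. The study's own criterion, a P value of at most 0.05 with a fold limit, was an alternative and was taken as an unadjusted p. Levels between genes are CPM per kb of exon. Named with values by sample are members called in any comparison and the 3 highest per kb of each cluster; of each list, at most 3 called genes with the largest change. A list gene that falls under this rule is not reported here. Alternatives were DESeq2 1.42.0, other scalings and filters, only the conditions compared, a replicate block, fold limits, each library left out, the deep library thinned, and unshared exon bases. The fit was tested on simulated data.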

Additional observations from a re-analysis of the deposited data

Results flagged for a closer look

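The difference between the 48 h doxorubicin responses of the ZMYND8 and GFP lines was tested by edgeR's interaction term, and 4 of 14 HOX genes passed it, or 28.6% (4 of 12, or 33.3%, without HOXB6 and HOXB8, which passed the filter on low counts only through 48 h libraries), against 28.6% of all genes. It was 1.78 log2 units for HOXB4, 0.93 for HOXB3, 0.65 for HOXD1 and 0.58 for HOXB9, each higher in the ZMYND8 line. The values for HOXB3 and HOXB9 were called in every alternative run, apart from a fold limit, whereas those for HOXB4 and HOXD1 were not. Each line carries a different construct, so construct and line cannot be told apart. The share of all genes includes genes that passed the filter only through 48 h libraries.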

How the results depend on the processing

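HOXB6 and HOXB8 at 48 h, which passed the filter only through 48 h libraries, are left aside here. Of the 36 other calls of a HOX gene in a comparison, 24 were kept with every library left out in turn. These 24 were also kept in every other tool, scaling, filter, sample choice and block that tested the gene, and 0 calls reversed. The filter on a mean of at least 10 counts did not test HOXB6, whose 6 h call in GFP cells is among the 24. The inducible counts that follow in this section are over all 14 tested members, so they include HOXB6 and HOXB8 at 48 h. Without these 2 genes edgeR called 7 of 12 at 48 h of doxorubicin in ZMYND8 cells. DESeq2 called 1 member for ZMYND8 against GFP at 6 h and 2 in the 48 h interaction. Without a filter, or with only the conditions compared, the 6 h comparison also called 1. The study's criterion, an unadjusted p of at most 0.05 with a log2 fold of at least 1.5, called 0, 0 and 1 for ZMYND8 against GFP at 0, 6 and 48 h, 2 and 0 for doxorubicin at 6 and 48 h in GFP, 2 and 3 in ZMYND8 cells and 1 in the 48 h interaction. An adjusted p of at most 0.05 with a log2 fold of at least 1 gave 1, 1 and 2, then 3 and 3, then 2 and 5, and 1. HOXB6 and HOXB8 are among the 5 at 48 h in ZMYND8 cells. HOXB6, at 2.12 log2 units, is also among the 3 that the study's criterion called there. The cause of these differences in count was not tested beyond the stricter rule itself. With each library left out, counts ranged from 2 to 3, 1 to 3 and 3 to 5 for ZMYND8 against GFP at 0, 6 and 48 h, 4 to 5 and 3 to 5 for doxorubicin in GFP, 3 to 5 and 7 to 9 in ZMYND8 cells, 0 to 0 and 2 to 4 in the interactions, and 0 to 0 in the transient system.

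Scaling by library totals alone moved the median log2 change of all genes at 48 h from 0.03 to 0.27 in GFP and from 0.05 to 0.25 in ZMYND8 cells, and the share of called genes that were higher from 50.5 to 68.0% and from 50.6 to 66.8%. In GFP cells 9 of 14 HOX genes were higher at 48 h with TMM and 13 of 14 with library totals, and HOXB9 went from 0.26 to 0.50.

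The replicate block left the counts at 3, 3, 5, 5, 5, 4, 9, 0 and 4 in the inducible system and 0 in the transient one. The 9, for 48 h of doxorubicin in ZMYND8 cells, includes HOXB6 and HOXB8, which passed the filter only through 48 h libraries. With only 2 numbers per condition, the labels and counts do not establish that replicate numbers pair the libraries: the deviations of same-numbered libraries correlated at 0.21 to 0.42 in the transient system and −0.10 to 0.03 in the inducible one. With 2 libraries a condition and members at a few counts, small changes of low HOX genes may have gone undetected at this depth.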
